A study of Mus musculus with 32 samples.

Results

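The 7 genes described here, Rab39, Cyp2s1, Tnfsf9, Swt1, Dedd2, Smco3 and Neat1, encode no chaperone and were among the genes with large rises in mouse striatum after the HSP90 inhibitor NVP-HSP990 (HSP990). They were chosen from 18193 genes on the difference between HSP990 and vehicle arrays in R6/2 or in WT mice. Their treatment changes are therefore given as a description, without a test. All arrays came from male mice of 12 weeks on a CBA X C57Bl/6 background, taken 4 h after an oral gavage. The groups were R6/2 mice given HSP990 at 12 mg/kg (8 arrays), R6/2 mice given vehicle (7 arrays), WT mice given HSP990 at 12 mg/kg (10 arrays) and WT mice given vehicle (7 arrays). R6/2 mice carry a transgene with a fragment of the human huntingtin gene that holds an expanded CAG repeat, and serve as a model of Huntington's disease. Levels are deposited log2 values of an Affymetrix 3' expression array, so a difference of 1 is a doubling of signal, and levels of different probe sets are not compared. Since the labels do not identify the mice, each p-value reflects variation among the arrays, which may be partly technical.

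HSP90 is an abundant chaperone that keeps kinases, receptors and other client proteins in an active fold. Its inhibition sets off the heat shock response, in which transcription of chaperone genes rises through short inverted repeats in their promoters called heat shock elements. Genes outside the chaperones can rise in the same period through this or other routes. Rab39 encodes a small GTPase of endosomal and lysosomal traffic. Cyp2s1 encodes a cytochrome P450 that the aryl hydrocarbon receptor (AHR) can induce, and AHR is itself an HSP90 client. Tnfsf9 encodes the membrane ligand of the T-cell costimulatory receptor that Tnfrsf9 encodes. Swt1 encodes an endoribonuclease domain protein whose relative in Saccharomyces cerevisiae takes part in quality control of RNA at the nuclear pore. Dedd2 encodes a nuclear protein with a death effector domain. Smco3 is named for the single membrane pass and coiled coil of its product. Neat1 is a long noncoding RNA that forms the core of nuclear bodies called paraspeckles.

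The tissue label was checked against striatal markers. Mean levels over 7 measured striatal neuron genes, among them Drd1, Penk and Ppp1r1b, were 9.92 to 10.9 in R6/2 arrays given HSP990, 9.64 to 11.2 in R6/2 arrays given vehicle, 11.8 to 12.3 in WT arrays given HSP990 and 11.8 to 12.2 in WT arrays given vehicle. The choroid plexus genes varied between arrays within every group. Array means over 8 of these genes ran from 5.50 to 8.43 in R6/2 HSP990 and 5.16 to 6.85 in R6/2 vehicle. In WT they ran from 5.35 to 9.17 with HSP990 and 5.44 to 8.72 with vehicle. Means over 5 cortex genes varied too, from 5.30 to 8.03 in R6/2 HSP990 and 5.42 to 8.59 in R6/2 vehicle. The WT cortex means ran from 5.33 to 8.075 with HSP990 and 5.74 to 8.37 with vehicle. The 3' to 5' difference of the Gapdh control probe sets is a sign of RNA integrity. It was 5.01 on replicate 5 of R6/2 HSP990, 2.23 on replicate 5 of WT vehicle, and at most 1.53 on the other arrays. The Actb control probe sets gave 4.10 and 2.66 on these 2 arrays. They gave 2.84 on replicate 4 of R6/2 HSP990 and 2.76 on replicate 1 of R6/2 vehicle. Without the 2 arrays that stood out by Gapdh, the numbers of the 7 genes that passed the tests described further on were as with them.

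RefSeq promoter windows on GRCm38.p6, of 300 bases ending 50 bases after the annotated start, were found for 4 of the 7 genes, all on the minus strand. They are shown because the genes were chosen for rises under a drug that raises chaperone genes. The window of the small heat shock protein gene Hspb1 (plus strand), chosen after its matches were seen, is shown for comparison. The windows lie at chr9:53706183-53706482 (Rab39), chr7:25816476-25816775 (Cyp2s1), chr1:151428386-151428685 (Swt1), chr7:25219810-25220109 (Dedd2) and chr5:135887669-135887968 (Hspb1). Each runs 5′ to 3′ on the gene's strand, and capitals mark matches to the motifs named after the sequences. Tnfsf9 on chromosome 17, Smco3 on chromosome 6 and Neat1 on chromosome 19 are named only.
Rab39: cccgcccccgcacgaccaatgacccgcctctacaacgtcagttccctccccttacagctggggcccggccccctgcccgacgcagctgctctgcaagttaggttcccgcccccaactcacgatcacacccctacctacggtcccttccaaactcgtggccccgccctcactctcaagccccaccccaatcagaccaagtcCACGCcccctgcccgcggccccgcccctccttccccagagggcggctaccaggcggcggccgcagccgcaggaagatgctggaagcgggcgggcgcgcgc
Cyp2s1: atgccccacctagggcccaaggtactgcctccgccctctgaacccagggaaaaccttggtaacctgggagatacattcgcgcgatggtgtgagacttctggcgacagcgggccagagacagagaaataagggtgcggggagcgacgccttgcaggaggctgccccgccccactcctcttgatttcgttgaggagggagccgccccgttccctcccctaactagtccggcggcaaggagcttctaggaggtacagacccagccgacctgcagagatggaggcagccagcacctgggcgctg
Swt1: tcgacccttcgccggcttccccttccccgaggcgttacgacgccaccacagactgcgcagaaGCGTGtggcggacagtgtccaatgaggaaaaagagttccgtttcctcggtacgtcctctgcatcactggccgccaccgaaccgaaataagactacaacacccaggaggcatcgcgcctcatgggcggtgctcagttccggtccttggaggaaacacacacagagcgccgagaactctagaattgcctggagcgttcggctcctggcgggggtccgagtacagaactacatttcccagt
Dedd2: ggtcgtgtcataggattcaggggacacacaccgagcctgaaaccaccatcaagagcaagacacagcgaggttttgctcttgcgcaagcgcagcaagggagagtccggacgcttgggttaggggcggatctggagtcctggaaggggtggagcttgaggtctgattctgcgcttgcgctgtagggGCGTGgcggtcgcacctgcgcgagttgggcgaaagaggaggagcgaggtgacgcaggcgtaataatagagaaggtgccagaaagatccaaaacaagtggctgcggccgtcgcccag
Hspb1: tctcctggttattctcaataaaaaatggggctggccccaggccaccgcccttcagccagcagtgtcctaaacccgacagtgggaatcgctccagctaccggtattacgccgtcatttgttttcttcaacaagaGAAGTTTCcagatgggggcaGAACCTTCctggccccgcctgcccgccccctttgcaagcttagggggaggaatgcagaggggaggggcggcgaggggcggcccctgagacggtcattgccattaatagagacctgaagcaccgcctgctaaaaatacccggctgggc
The motifs were searched on both strands, and a match is a description of the letters only. A heat shock element of 2 inverted units (GAANNTTC or TTCNNGAA) was found in 0 of these 4 windows, in 7 of 8 chaperone genes of the heat shock index described further on, and in 15.1% of 32851 mouse windows. Hspb1 held 2 matches, 117 and 97 bases before the start. A run of 3 alternating units was found in 0 of the 4 windows, 3 of the 8 chaperone genes and 0.603% of all windows. The AHR core GCGTG (or its reverse complement CACGC) was found in 3 of the 4 windows, 188 bases before the start of Swt1, 66 before that of Dedd2 and 50 before that of Rab39. It was in 4 of the 8 chaperone genes and 32.4% of all windows, and Cyp2s1 held none. The AP-1 motif TGANTCA (7.81% of windows) and TATAAA (13.6%) were in 0 of the 4 windows and 0 of the 8 chaperone genes. No overlapping matches occurred in the windows shown.

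Rab39, Cyp2s1, Tnfsf9, Swt1 and Dedd2 were higher on every HSP990 array than on every vehicle array of the same genotype, in R6/2 and in WT alike. Such separation held for 5 of the 7 genes in R6/2, where 0.5% of all genes showed it, and for the same 5 in WT, where 0.731% did. In R6/2, 2.18% of all genes passed the threshold (limma, Benjamini-Hochberg adjusted p under 0.05) as higher with HSP990 and 3.09% in either direction. In WT the shares were 2.24% and 5.8%. Nothing is read from these shares about the genes, which were selected on these differences. Smco3 and Neat1, whose large rise was in WT, overlapped between treatments in both genotypes.

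Rab39 ranged from 5.50 through a median of 5.90 to 6.38 on R6/2 HSP990 arrays, against 3.55, 3.94 and 4.48 (lowest, median and highest) on R6/2 vehicle arrays. It was 4.97, 5.20 and 5.92 on WT HSP990 arrays, against 3.19, 3.50 and 3.89 on WT vehicle arrays. The treated and vehicle ranges lay more than 1 log2 unit apart in each genotype. The log2 change was 1.94 ± 0.15 (SE), or 3.84-fold, in R6/2 and 1.79 ± 0.14, or 3.45-fold, in WT. Rab39 ranked 4 from the top of all genes in R6/2 and 5 in WT. Rab39 was dim: its mean over the 32 arrays fell under 5.77, the median level of the whole array.

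Cyp2s1 was 7.38, 8.02 and 8.38 (lowest, median and highest) on R6/2 HSP990 arrays, against 6.06, 6.68 and 6.78 on R6/2 vehicle arrays. It was 8.23, 9.02 and 9.59 on WT HSP990 arrays, against 7.13, 7.33 and 8.07 on WT vehicle arrays. The WT ranges nearly met, since replicate 6 of WT HSP990 was the lowest treated WT array. The change was 1.49 ± 0.17 (2.82-fold) in R6/2 and 1.61 ± 0.16 (3.06-fold) in WT, ranks 5 and 8.

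Tnfsf9 was 5.47, 5.83 and 6.10 on R6/2 HSP990 arrays, against 4.33, 4.54 and 4.83 on R6/2 vehicle arrays. In WT it was 5.53, 5.90 and 6.14 with HSP990, against 4.43, 4.51 and 4.92 with vehicle. Treated ranges were nearly the same in both genotypes, as were vehicle ranges. The change was 1.22 ± 0.11 (2.34-fold) in R6/2 and 1.25 ± 0.10 (2.37-fold) in WT. Tnfsf9 was dim by the same measure as Rab39.

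The changes of Swt1 and Dedd2 were the smallest of these 5. Swt1 was 8.42, 8.69 and 9.05 on R6/2 HSP990 arrays, against 7.48, 7.64 and 7.91 on R6/2 vehicle arrays. It was 8.03, 8.34 and 8.49 on WT HSP990 arrays, against 7.26, 7.40 and 7.62 on WT vehicle arrays. The change was 1.07 ± 0.09 (2.09-fold) in R6/2 and 0.90 ± 0.08 (1.86-fold) in WT, ranks 13 and 44. A dimmer Swt1 probe set gave 1.10 ± 0.09 (2.15-fold) in R6/2 and 1.00 ± 0.09 (2.00-fold) in WT, also with no overlap between treatments. Dedd2 was 7.19, 7.65 and 7.89 on R6/2 HSP990 arrays, against 6.17, 6.62 and 6.76 on R6/2 vehicle arrays. It was 6.96, 7.27 and 7.50 on WT HSP990 arrays, against 6.13, 6.44 and 6.61 on WT vehicle arrays. The Dedd2 change was 1.04 ± 0.10 (2.06-fold) in R6/2 and 0.83 ± 0.09 (1.78-fold) in WT, ranks 14 and 56.

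**Figure D1:**
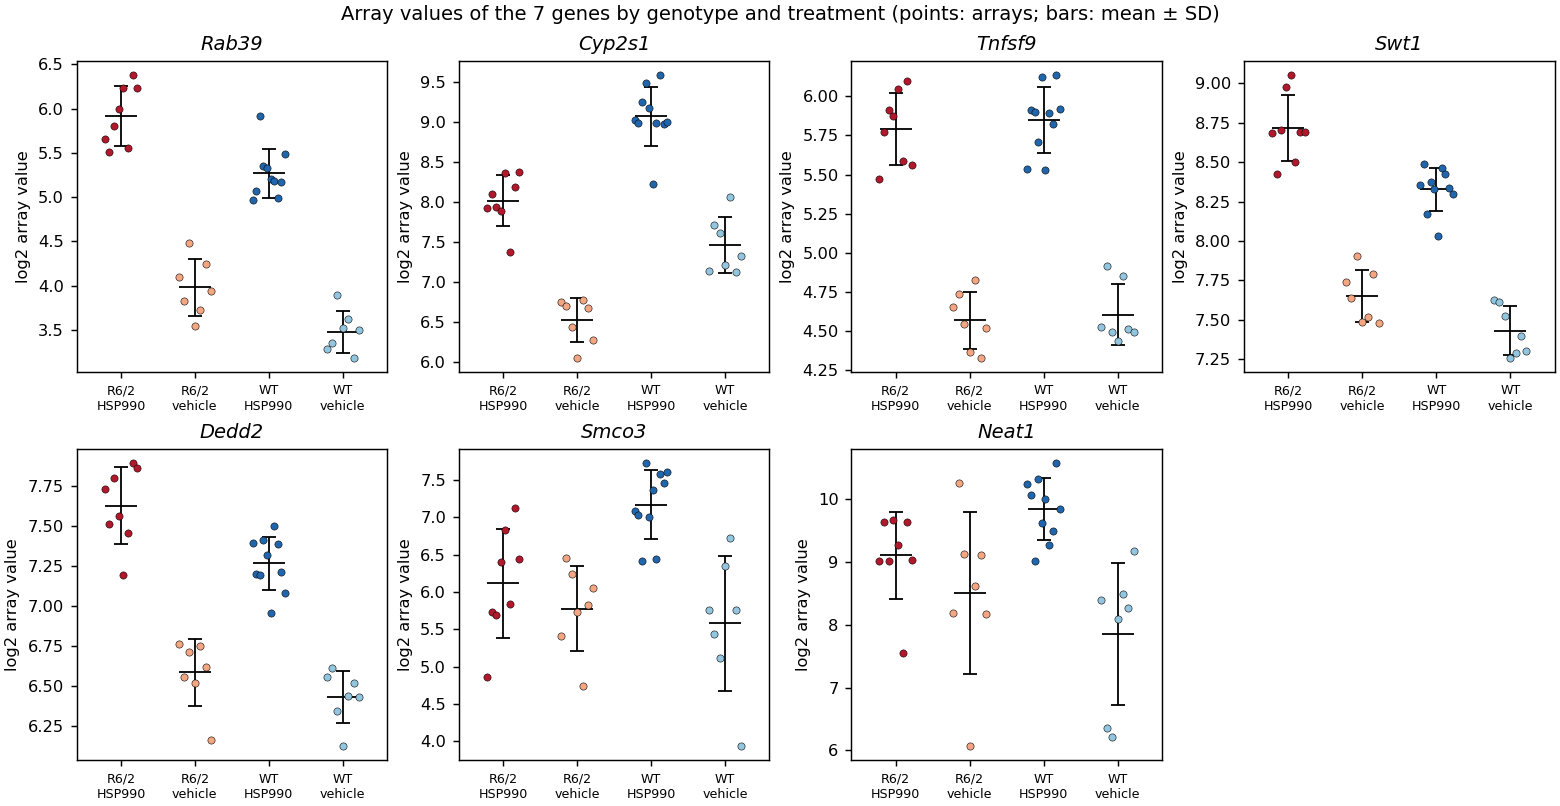
Deposited log2 value (vertical axis) of the 7 genes on each array, by genotype and treatment. Points are arrays and bars are the mean ± SD of 8, 7, 10 and 7 arrays from left to right. Treated and vehicle arrays of the same genotype do not overlap for Rab39, Cyp2s1, Tnfsf9, Swt1 and Dedd2, and do for Smco3 and Neat1.

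Smco3 and Neat1 spread more widely than the other 5 genes. Smco3 was 4.86, 6.13 and 7.12 on R6/2 HSP990 arrays, against 4.74, 5.82 and 6.45 on R6/2 vehicle arrays. In WT it was 6.42, 7.23 and 7.73 with HSP990, against 3.94, 5.76 and 6.73 with vehicle. Of the treated arrays, 2 of 8 in R6/2 and 8 of 10 in WT lay above all vehicle arrays of their genotype. The WT overlap came from replicate 5 of WT vehicle (6.73), 1 of the 2 arrays with a strong 3' bias by Gapdh. The next vehicle array (6.35) lay under the lowest treated one. The change was 0.34 ± 0.33 (1.26-fold, rank 758) in R6/2 and 1.59 ± 0.31 (3.01-fold, rank 9) in WT. The R6/2 value was 0.17 without replicate 5 of R6/2 vehicle and 0.52 without replicate 1 of R6/2 HSP990. The WT value was 1.32 without replicate 7 of WT vehicle, the lowest array of that group (3.94), and 1.78 without its replicate 5.

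Neat1 was 7.54, 9.15 and 9.66 on R6/2 HSP990 arrays, against 6.07, 8.62 and 10.25 on R6/2 vehicle arrays. In WT it was 9.01, 9.92 and 10.56 with HSP990, against 6.21, 8.26 and 9.18 with vehicle. No treated R6/2 array exceeded the highest vehicle R6/2 array, and 9 of 10 treated WT arrays exceeded all WT vehicle arrays. The SD was 0.69 and 1.29 in R6/2 HSP990 and R6/2 vehicle arrays, and 0.49 and 1.13 in WT HSP990 and WT vehicle arrays. The change was 0.60 ± 0.44 (1.51-fold, rank 125) in R6/2 and 1.99 ± 0.42 (3.96-fold, rank 4) in WT. The R6/2 value was 0.19 without replicate 4 of R6/2 vehicle, the lowest Neat1 array, and 0.89 without replicate 2, the highest of that group. Replicate 4 also had the lowest striatal neuron marker mean (9.64) and the lowest choroid plexus marker mean (5.16) of R6/2 vehicle. In WT vehicle, replicate 3 had the lowest and replicate 7 the highest Neat1 level. These were the lowest (5.44) and the highest (8.72) choroid plexus arrays of the group. The highest arrays of R6/2 vehicle did not coincide (replicate 2 for Neat1, replicate 6 for choroid plexus). In both treated groups, neither the lowest nor the highest Neat1 array was that of choroid plexus. The part of these markers in the Neat1 values was not tested.

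The rise of Neat1 rested on 1 of its 2 probe sets. The dimmer one averaged 6.33 with HSP990 and 6.33 with vehicle in R6/2, and 6.25 with HSP990 and 6.32 with vehicle in WT. Its change was 0.00 ± 0.08 in R6/2 and -0.07 ± 0.07 in WT. Neat1 has a short and a long isoform, and the files do not say which of them each probe set reads. With the mean of both probe sets, the WT change of Neat1 was 0.96.

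**Figure D2:**
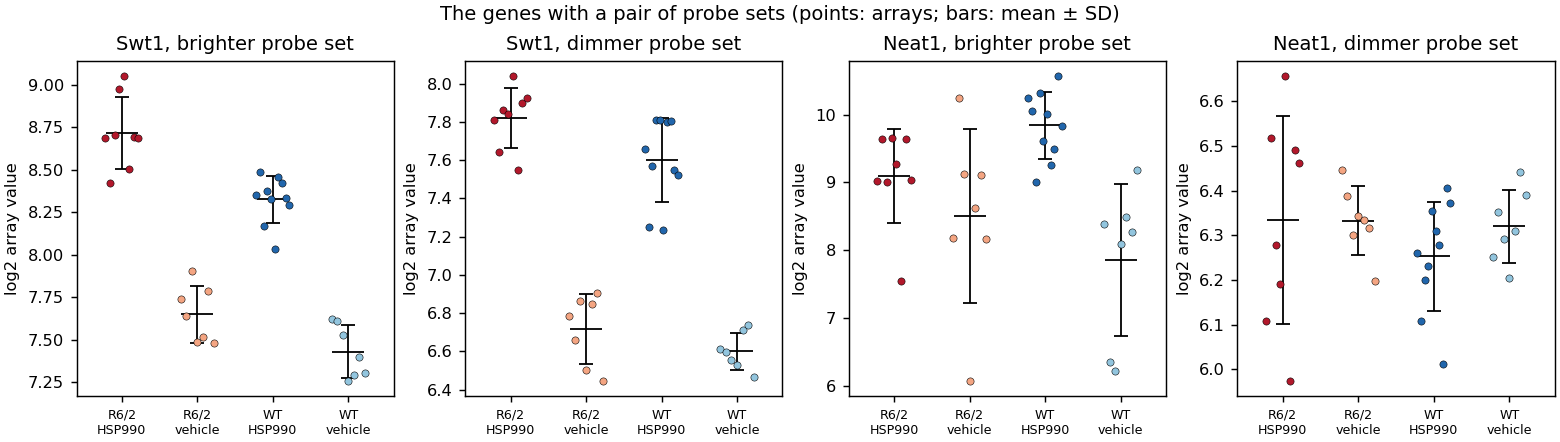
Deposited log2 value (vertical axis) of the brighter and the dimmer probe set of Swt1 and Neat1 by genotype and treatment. Points are arrays and bars are the mean ± SD. Both Swt1 probe sets separate treated from vehicle arrays, whereas the dimmer Neat1 probe set lies between 5.97 and 6.66 in all 4 groups.

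Whether the response differed between genotypes was tested as an interaction (R6/2 response minus WT response). This test uses the arrays that chose the genes, and a gene chosen for its rise in 1 genotype favours a larger value there. None of the 7 genes passed after adjustment over all genes (limma), where 0.247% of all genes did, and Smco3 and Neat1 had an unadjusted p under 0.05. The difference was -1.25 ± 0.45 for Smco3 (adjusted p = 0.224) and -1.39 ± 0.61 for Neat1 (adjusted p = 0.328), both in the direction that a choice on the WT rise favours. For the other 5 genes the 95% intervals of the difference, not adjusted over genes, were -0.26 to 0.56 for Rab39, -0.58 to 0.35 for Cyp2s1, -0.32 to 0.27 for Tnfsf9, -0.08 to 0.41 for Swt1 and -0.07 to 0.49 for Dedd2. The chaperone genes of the heat shock index gave 3 of 10 as lower in this test (Hspe1, Hspa1a and Hspd1) and none as higher, with a median of -0.44 against 0.05 for all genes. That difference between the 7 genes and the chaperones was not tested.

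**Figure D3:**
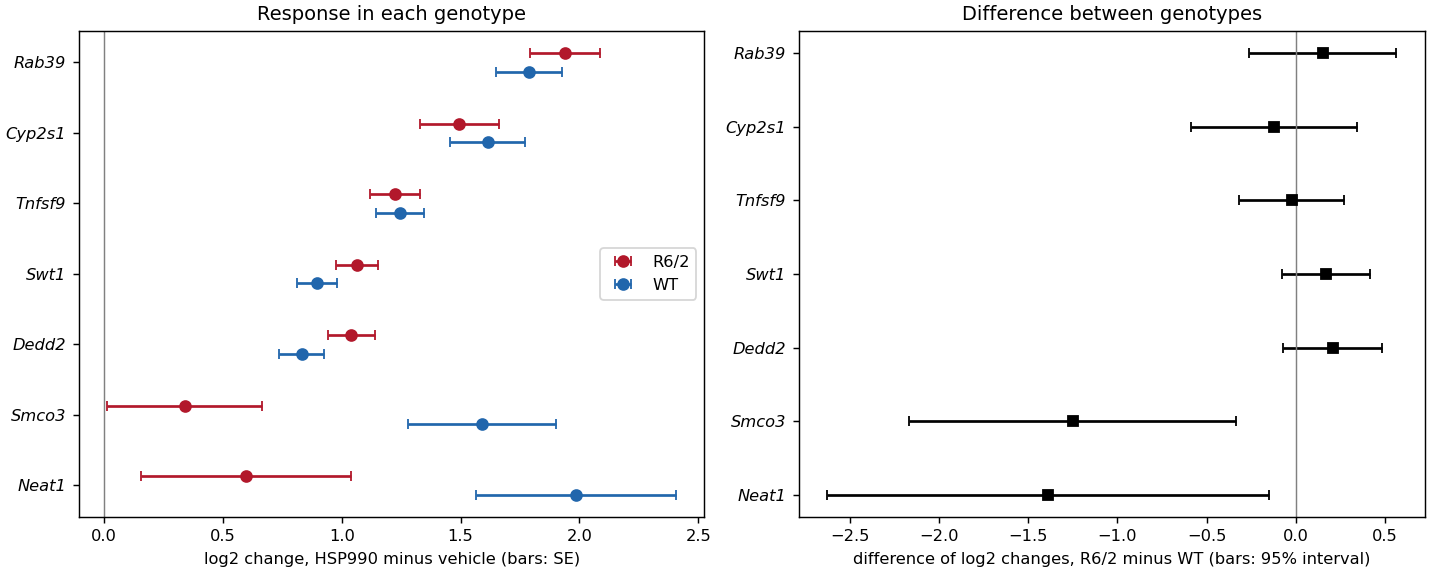
Left, log2 change of HSP990 minus vehicle (horizontal axis) in each genotype, with SE bars. Right, the R6/2 change minus the WT change with its 95% interval. The pairs lie close together for Rab39, Cyp2s1, Tnfsf9, Swt1 and Dedd2, and the R6/2 change is 1.25 and 1.39 below the WT change for Smco3 and Neat1.

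Levels differed between genotypes for some of the genes. The genes were not chosen on this comparison, but the choice used the same arrays. A choice on the WT rise favours an R6/2 value that is lower under HSP990 and higher on vehicle, and a choice on the R6/2 rise favours the opposite. On vehicle, 2 of the 7 passed the threshold, where 21.5% of all genes did. Cyp2s1 was lower in R6/2, with every R6/2 array below every WT array (-0.93 ± 0.17, 1.91-fold lower, adjusted p = 0.000137, limma), and 2.37% of all genes separated in that direction. Rab39 was higher in R6/2 (0.50 ± 0.15, 1.41-fold, adjusted p = 0.0161), with overlapping ranges. Without replicate 3 of R6/2 vehicle the Rab39 difference was 0.42 (adjusted p = 0.0524). The other 5 did not pass, and their intervals were -0.26 to 0.18 for Tnfsf9, 0.04 to 0.40 for Swt1, -0.06 to 0.36 for Dedd2, -0.49 to 0.88 for Smco3 and -0.28 to 1.58 for Neat1. The Swt1 interval leaves out 0, but its adjusted p was 0.0808.

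Under HSP990, 5 of the 7 passed, where 33.6% of all genes did. The choice used the treated arrays, so nothing is read from this count. Rab39 (0.65 ± 0.13, 1.57-fold, adjusted p = 0.000249), Swt1 (0.39 ± 0.08, 1.31-fold, adjusted p = 0.00024) and Dedd2 (0.36 ± 0.09, 1.28-fold, adjusted p = 0.00215) were higher in R6/2. Cyp2s1 (-1.05 ± 0.15, 2.07-fold lower, adjusted p = 1.61e-06) was lower in R6/2. The fifth was Smco3 (-1.06 ± 0.30, 2.08-fold lower in R6/2), whose difference is given as a description, since its high level on WT HSP990 arrays entered its choice. The same holds for Neat1. The treated arrays of the other genes entered the choice too, and their p-values carry that limit. Swt1 and Dedd2 ranked 13 and 14 from the top in R6/2 but 44 and 56 in WT. A choice on the R6/2 rise favours a higher R6/2 level under HSP990, the direction found for both. The dimmer Swt1 probe set differed by 0.22 (adjusted p = 0.0466 over all probe sets). Tnfsf9 (-0.06 ± 0.10) and Neat1 (-0.74 ± 0.40) did not pass, with intervals of -0.25 to 0.14 and -1.56 to 0.08. Ranges overlapped between genotypes for all 7 genes under HSP990.

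Cyp2s1 thus stood lower in R6/2 with either treatment. Rab39 stood higher in R6/2 with either treatment, though its call on vehicle was lost without replicate 3 of R6/2 vehicle. Markers of striatal neurons moved with genotype too: 6 of 7 were lower in R6/2 on vehicle (median -1.50) and 6 of 7 under HSP990 (median -1.87), Drd1 by 2.14 log2 units in the treated arrays. Markers of astrocytes were lower in R6/2 for 1 of 6 on vehicle and 4 of 6 under HSP990, those of oligodendrocytes for 1 of 5 and 3 of 5, and those of microglia for 1 of 6 and 4 of 6. Of 5 cortex markers only Lamp5 was called, lower in R6/2 on vehicle (-0.73) and under HSP990 (-0.39). The cortex medians were -0.016 and -0.275, with highest values of 1.06 and 0.45. Of 5 blood markers only Alas2, a dim gene, was called, lower in R6/2 with either treatment (-0.89 and -0.59). The blood medians were 0.08 and 0.015, with highest values of 0.215 and 0.32. The 8 choroid plexus markers were all lower in R6/2 on vehicle (-1.38 to -0.52, median -0.96), where none was called (limma, 2 at an unadjusted p under 0.05), and had a median of 0.08 under HSP990 (0 called, 0 at an unadjusted p under 0.05). In pieces of tissue, fewer cells of a type and less RNA per cell cannot be told apart. The part of these markers in the genotype differences was not tested.

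**Figure D4:**
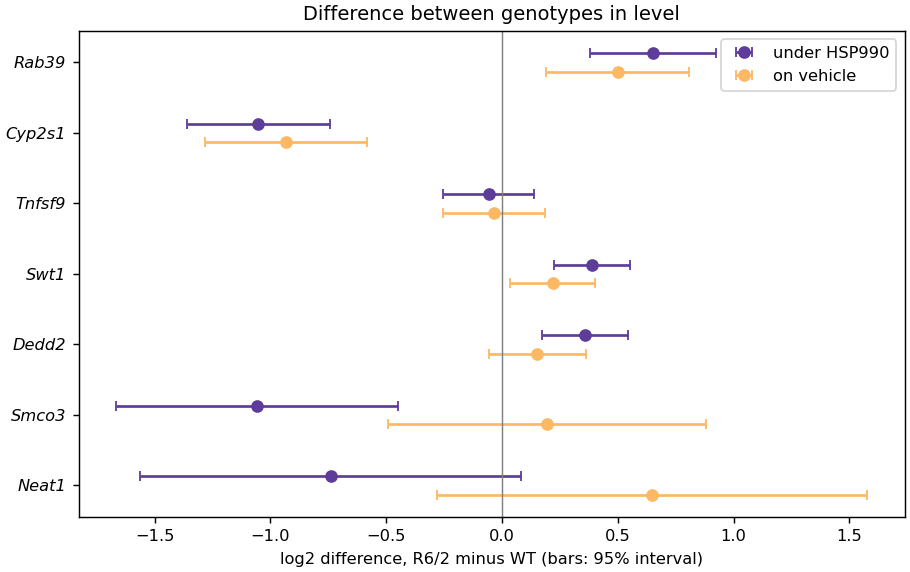
Log2 difference of R6/2 minus WT (horizontal axis) for the 7 genes under HSP990 and on vehicle, with 95% intervals. Cyp2s1 lies near -1 and Rab39 above 0 with both treatments, Tnfsf9 lies near 0, and the Smco3 and Neat1 values change sign between treatments.

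Of the cell type markers, 3 were called with treatment. Of the 7 striatal markers Drd1 was lower in R6/2 given HSP990 (-0.80 ± 0.16, adjusted p = 0.00242), and none was called in WT. Of 6 endothelial markers, Flt1, a receptor of vascular growth factors, was higher in R6/2 (0.31, adjusted p = 0.0237) and in WT (0.39, adjusted p = 0.000911), and Cldn5 of tight junctions was lower in R6/2 (-0.73, adjusted p = 0.0481). Of these 6, 5 had an unadjusted p under 0.05 in R6/2 and 1 in WT, with changes from -0.73 to 0.31 in R6/2 and from -0.32 to 0.39 in WT. None of the choroid plexus, cortex, subcortical, astrocyte, oligodendrocyte, microglia or blood markers was called with treatment (limma). Of these 40 genes, 4 had an unadjusted p under 0.05 in R6/2 and 3 in WT. The choroid plexus median was 0.41 in R6/2 and -0.57 in WT, and 0.96 in the interaction, where none of the 8 was called (1 at an unadjusted p under 0.05). The part of Drd1, Flt1, Cldn5 and the choroid plexus markers in the changes of the 7 genes was not tested.

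Each gene was set beside the genes that share its pathway or family, on lists that were chosen with earlier results known. Of 15 relatives and partners of Rab39, 1 was higher with HSP990 in R6/2 and 2 in WT, with a median of 0.08 and 0.01 against 0.02 and -0.03 for all genes. Smcr8, part of the C9orf72 complex that acts in autophagy, was the one called in R6/2 (0.32 ± 0.07, adjusted p = 0.0114). Rab7b of late endosomes (0.60 ± 0.11, adjusted p = 0.00075) and Rab39b, the closest relative of Rab39 (0.26 ± 0.07, adjusted p = 0.0141), were the ones in WT. Between genotypes 5 of the 15 were higher in R6/2 on vehicle, and 8 were higher and 1 lower under HSP990, with Rab29 (0.52 and 0.73), Rab2b (0.43 and 0.58) and Wdr41 (0.35 and 0.33) called in both.

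No gene of the AHR list was called higher with HSP990. Of its 9 measured genes, none was called with HSP990 in R6/2 (2 at an unadjusted p under 0.05), and in WT Tiparp, an AHR target that feeds back on the receptor, fell (-0.56 ± 0.11, adjusted p = 0.00112). The list median was 0.01 in R6/2 and -0.10 in WT, and 5 of the 9 genes were dim. Under HSP990, Ahr itself (0.45, adjusted p = 0.000474, limma) and the quinone reductase gene Nqo1 (0.40, adjusted p = 0.00351) were higher in R6/2. So was the repressor gene Ahrr (0.22, adjusted p = 0.0219), which was dim, while Cyp2s1 was lower. On vehicle only Cyp1a1, also dim, was called on this list, lower in R6/2 (-0.23, adjusted p = 0.0415, limma), as Cyp2s1 was. The part of AHR in the Cyp2s1 differences was not tested. Of 10 other P450 and electron donor genes, none was called with HSP990 in R6/2 (1 at an unadjusted p under 0.05) or WT (0), with medians of 0.11 and -0.05. Between genotypes 1 of them was called on vehicle, Cyp2b10 (-0.20, adjusted p = 0.0377), and 1 under HSP990, Cyp2u1 (0.21, adjusted p = 0.0352).

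Of 16 measured genes of the tumour necrosis factor (TNF) family and its receptors and adaptors, 15 were dim, as Tnfsf9 was. None was called with HSP990 in R6/2 (2 at an unadjusted p under 0.05), and in WT the death ligand gene Tnfsf10 was higher (0.35 ± 0.10, adjusted p = 0.0271). Medians of the family were -0.02 in R6/2 and -0.05 in WT. The receptor gene Tnfrsf9 gave -0.08 (adjusted p = 0.758) in R6/2 and -0.09 (adjusted p = 0.645) in WT. Between genotypes, none was called on vehicle (0 at an unadjusted p under 0.05), and Ltb was higher in R6/2 under HSP990 (0.29, adjusted p = 0.0216). Of 7 death effector and death receptor pathway genes set beside Dedd2, none was called with HSP990 in R6/2 (3 at an unadjusted p under 0.05) or in WT (1), with medians of 0.07 and -0.03. The nearest relative, Dedd, gave -0.09 (adjusted p = 0.763) in R6/2 and -0.03 (adjusted p = 0.933) in WT. Under HSP990, 3 of the 7 were higher in R6/2 (limma), where 33.6% of all genes were called in either direction. They were the adaptor gene Tradd (0.70, adjusted p = 7.18e-05), the caspase regulator gene Cflar (0.37, adjusted p = 0.00184) and Casp8 (0.23, adjusted p = 0.0423). Tradd and Casp8 were dim. None of the 7 was called on vehicle (2 at an unadjusted p under 0.05).

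Genes of mRNA export and the nuclear pore were set beside Swt1. Of 14, none was called with HSP990 in R6/2 (3 at an unadjusted p under 0.05), and in WT the nucleoporin gene Nup50 fell (-0.28 ± 0.06, adjusted p = 0.00132). Medians were 0.08 in R6/2 and -0.02 in WT. In R6/2, 3 were higher on vehicle and 9 under HSP990, among them the export complex gene Thoc7 (0.41 and 0.45) and, under HSP990, Nup50 (0.50) and the export receptor gene Nxf1 (0.34). Of 13 measured paraspeckle genes, with Neat1's neighbour Malat1 counted among them, none was called with HSP990 in R6/2 (3 at an unadjusted p under 0.05) or WT (1). The paraspeckle median was -0.10 in R6/2 and 0.02 in WT. In R6/2, 2 were higher on vehicle, Nudt21 (0.41) and Nono (0.24), and 5 higher and 2 lower under HSP990, where the core protein gene Sfpq was lower (-0.54, adjusted p = 6.82e-05).

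Other stress genes moved in part. Of 16, 3 rose with HSP990 in R6/2 and 5 in WT, with medians of 0.02 and 0.10. Jun, an AP-1 subunit and a large rise outside the 7 genes, changed by 1.10 ± 0.22 (2.15-fold, adjusted p = 0.00276) in R6/2 and 1.40 ± 0.21 (2.64-fold, adjusted p = 3.84e-05) in WT. Gadd45b of the growth arrest family rose in both, by 0.49 in R6/2 and 0.32 in WT. Atf3, a dim gene, rose in R6/2 (0.35, adjusted p = 0.0211, limma). Zfand2a, a stress-induced partner of the proteasome, rose in WT (0.63, adjusted p = 0.00131). Of the 100 genes on all these lists, 4 were higher and 0 lower with HSP990 in R6/2, and 8 higher and 2 lower in WT, where 3.09% and 5.8% of all genes were called. Between genotypes 11 were higher and 4 lower in R6/2 on vehicle, and 31 higher and 7 lower under HSP990, where 21.5% and 33.6% of all genes were called. None of the 100 passed the interaction test (limma), and 16 had an unadjusted p under 0.05.

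For each of the 7 genes the nearest measured gene on either side in the RefSeq gene table was read, 14 in all. None was called with HSP990 in R6/2 (2 at an unadjusted p under 0.05, changes from -0.34 to 0.20) or in WT (1 at an unadjusted p under 0.05, changes from -0.16 to 0.29). Malat1, the abundant nuclear noncoding RNA next to Neat1, gave -0.03 ± 0.10 in R6/2 and 0.17 ± 0.09 in WT. Cul5 and Slc35f2 beside Rab39 gave 0.20 ± 0.11 and 0.20 ± 0.10 in R6/2, and 0.01 ± 0.11 and 0.06 ± 0.09 in WT.

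The genes with the most similar array pattern were found by the root mean square difference over the 32 arrays, after each gene's WT vehicle mean was subtracted. This measure uses the contrasts that chose the 7 genes and is a description. Nearest to Rab39 was Dnajb1, a co-chaperone of HSP70 (0.38 log2 units), before Cys1 (0.61) and Gprasp2 (0.66). Nearest to Cyp2s1 were Hsph1 (0.50), Plod1 (0.58) and Hspe1 (0.60), and nearest to Tnfsf9 were Chordc1 (0.29), Lpar6 (0.30) and P4ha2 (0.30). Swt1 and Dedd2 lay near each other (0.22), both with Naa16 (0.19 from Swt1 and 0.25 from Dedd2), while Fxr1 (0.24) was also near Swt1 and Tmed8 (0.24) near Dedd2. Smco3 had Hspe1 (0.65), Hspd1 (0.68) and Hsph1 (0.70) as its nearest genes. Those nearest to Neat1, Dnajb1 (0.94), Cacybp (0.98) and Dnaja1 (0.98), were farther off than the nearest of any of the other 6 genes.

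Whether the treated mice with more chaperone message also had more of the 7 transcripts was tested within each treated group. The treated arrays entered the choice, but their relation to chaperone message within a group did not. The heat shock index was the mean of 10 chaperone genes, all 10 called higher in WT and 9 in R6/2. Index levels were 11.7 to 12.1 on R6/2 HSP990 arrays, 10.2 to 10.6 on R6/2 vehicle arrays, 12.1 to 12.4 on WT HSP990 arrays and 9.89 to 10.6 on WT vehicle arrays. Of 14 relations, 0 passed and 0 had an unadjusted p under 0.05. In R6/2 (8 arrays, exact two-sided permutation test), Rab39 gave r = 0.54 (p = 0.176, adjusted p = 0.972) and rho = 0.71 (p = 0.0576, adjusted p = 0.388), with r = 0.76 without the 2 arrays farthest from the median index. Dedd2 gave r = 0.55 (exact p = 0.16, adjusted p = 0.972) and rho = 0.67 (exact p = 0.0831, adjusted p = 0.388), with r = 0.56 without those 2 arrays. Cyp2s1 gave r = 0.42 (exact p = 0.295) and rho = 0.67 (exact p = 0.0831), with r = 0.42 without them. Under other processing, r in R6/2 ran from 0.28 to 0.65 for Rab39, 0.30 to 0.66 for Dedd2 and 0.07 to 0.61 for Cyp2s1. With single arrays left out, the r of these genes ran from 0.35 to 0.84, 0.41 to 0.80 and 0.26 to 0.58. Tnfsf9, Swt1, Smco3 and Neat1 had r from -0.17 to 0.33 in R6/2. In WT (10 arrays, permutation test with 100000 resamples), r ran from -0.28 for Dedd2 (p = 0.429, adjusted p = 0.972) to 0.39 for Smco3 (p = 0.257, adjusted p = 0.972), and the Smco3 value was 0.07 without the 2 farthest arrays. Without them r in WT was -0.60 for Rab39, the opposite sign to its R6/2 value, -0.44 for Tnfsf9 and 0.28 for Dedd2, whose sign turned. The index covered less than 0.5 log2 units within either treated group.

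**Figure D5:**
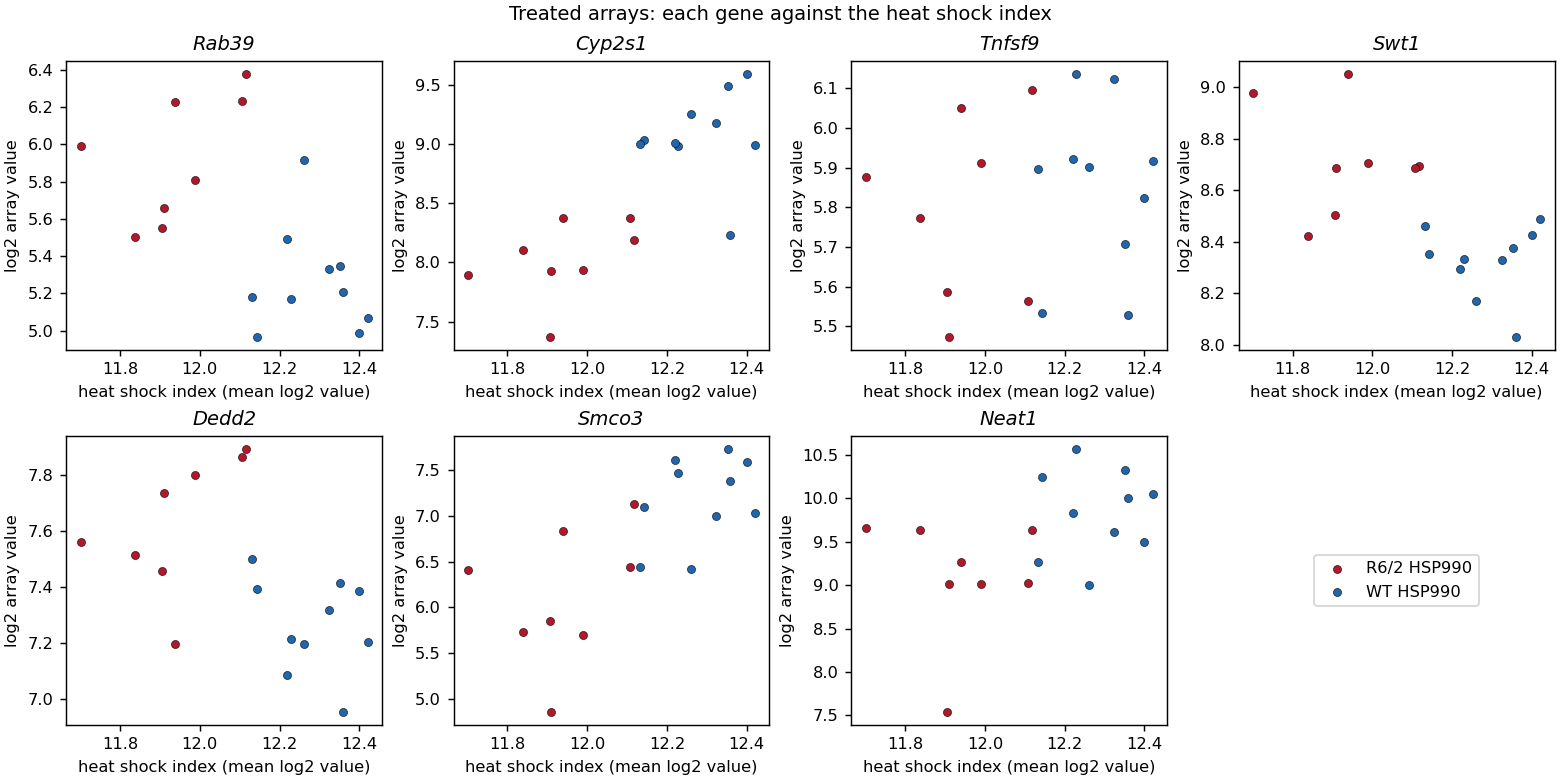
Deposited log2 value of each of the 7 genes (vertical axis) against the heat shock index, the mean log2 value of 10 chaperone genes (horizontal axis), on the treated arrays. Points are arrays of R6/2 HSP990 (8) and WT HSP990 (10). R6/2 points lie left of 12.12 and WT points right of 12.13, and within neither group did a relation pass the test.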

How the data were processed

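Per the labels' protocols, total RNA from striatum was biotin-labelled with a 3' in vitro transcription kit and hybridised to an Affymetrix mouse array, 1 array per sample. The deposited values are log2 signals with similar array medians (5.73 to 5.78). The normalization method was not given in the sources used here. Per the series design text, RACE served for quality control. Precision is limited by the number of arrays.

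Of 45101 probe sets, 64 were controls, 34945 had 1 gene symbol, 932 several and 9160 none. Symbols came from the platform's probe table and the RefSeq gene table, in which 204 were not found. The single-symbol probe set with the highest mean represented each of 18193 genes, and 9010 genes had several. No filter was applied. The 7 genes had 9 probe sets, and no arrays held identical values.

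The 4 group means were fitted with limma 3.58.1 in R 4.3.3 (lmFit and eBayes, Benjamini-Hochberg over all genes, threshold 0.05), tested on simulated data. Other values came from Python 3.11.15 with numpy 2.4.6, pandas 2.3.3 and scipy 1.17.1. Alternatives were quantile normalization, median centring, removal of dim genes, probe set means, array weights, other variance models, a 3' bias covariate, fits to the compared groups alone and leaving out each array. Named genes were the 7, up to 4 called genes of each list with the smallest p, the 3 most similar genes of each, the neighbours and Jun. Tnfrsf9 and Dedd were added for their roles. The 7 genes and all lists were chosen with earlier results of these data known. Listed genes without a single-symbol probe set were not analysed here.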

Additional observations from a re-analysis of the deposited data

Results flagged for a closer look

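Among the 28 combinations of gene and group, 3 held an array far from the others by Dixon's test, which flags about 1 in 20 groups by chance. Cyp2s1 was 8.23 on replicate 6 of WT HSP990, the lowest of 10 arrays, with a gap of 0.555 of the range (critical value 0.466). The same array had the lowest striatal neuron marker mean of its group (11.8). Dedd2 was 6.17 on replicate 7 of R6/2 vehicle, the lowest of 7 arrays (0.594 of the range, critical value 0.568), and this array had the highest cortex (8.59) and subcortical (8.23) marker means of its group. Neat1 was 7.54 on replicate 6 of R6/2 HSP990, the lowest of 8 arrays (0.696 of the range, critical value 0.526), and this array had the lowest striatal neuron marker mean (9.92) and the highest cortex marker mean (8.03) of its group. The part of these markers in the 3 values was not tested.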

How the results depend on the processing

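Of the 7 genes, 2 passed between genotypes on vehicle. The count was 1 when dim genes were removed, because Rab39 and Tnfsf9 were then not fitted, 3 with array weights and with the 3' bias covariate, and 1 to 2 when single arrays were left out (1 without replicate 3 of R6/2 vehicle). The further gene was Swt1, with 0.22 (adjusted p = 0.0491) under array weights and 0.25 (adjusted p = 0.0201) under the covariate, and the cause was not tested. Under HSP990, 5 genes passed, among them Smco3, whose difference is a description. The count was 4 with dim genes removed (Rab39 not fitted) and 6 in a fit to the compared groups alone, which added Neat1 (-0.74). It was 5 to 5 when single arrays were left out. The interaction count was 0 in every fit, and the relations to the index likewise. Median treatment changes were 1.04 to 1.11 in R6/2 and 1.32 to 1.72 in WT with single arrays left out. The WT change of Neat1 was 0.96 with the mean of its probe sets.

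Deviations of same-numbered arrays from their group means had r from -0.29 to 0.38. They were not compared with those of differently numbered arrays, so a pairing or shared batch by number was not tested. The main fit did not use the replicate numbers. With a replicate block the counts were 2, 5 and 0 (interaction), and the median changes 1.06 in R6/2 and 1.44 in WT. Over all genes, calls with HSP990 in R6/2 were 563, against 368 with the covariate, 202 in the fit to the compared groups, 1043 without R6/2 vehicle replicate 1 and 309 without replicate 7. In WT they were 1056, against 1815 with array weights and 655 with the block. The interaction gave 45, against 150 with array weights, 80 with probe set means, 23 with the block, 16 with the covariate, 182 without R6/2 vehicle replicate 1, 93 without WT vehicle replicate 7, 76 without WT HSP990 replicate 2, and 69 without R6/2 HSP990 replicate 2 or WT vehicle replicate 4 (30 to 182 over all arrays left out). Leaving out the 2 arrays with strong 3' bias, chosen after seeing the data, gave counts of 2, 5 and 0 for the 7 genes and 25 interaction calls over all genes.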
